A study of Mus musculus with 8 samples.

Results

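The data compared here are 4 expression arrays of RNA from the eyes of mice aged 1 month, 2 from KPAW eyes and 2 from wild-type eyes, out of 8 arrays in the series. They were chosen by their titles, which number the arrays I and II within each group, and all probe sets other than the array's own controls were considered. KPAW is the name the labels give the mutant eye and they do not expand it. No strain is given for any of the 4 arrays, and the labels do not say whether the 2 arrays of a group came from separate animals. A p-value therefore measures the spread between arrays, which may be technical. The other 4 arrays, from KPAW and C57Bl6 wild-type eyes at 5 days, entered the model to estimate the spread and are otherwise quoted only for reference.

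The whole eye mixes tissues whose transcripts are well known. The cornea is covered by an epithelium that makes keratin 12 and large amounts of soluble enzymes such as Aldh3a1, and stays moist and transparent. The conjunctiva around it adds goblet cells, which secrete gel-forming mucins, and the skin of the lid makes a cornified envelope, a shell of cross-linked proteins such as loricrin and the small proline-rich proteins laid down beneath the keratinocyte membrane. The retina at this age is dominated by rods, photoreceptors whose identity is set by the transcription factors Nrl and Crx and whose outer segments carry the light-signalling cascade of transducin, phosphodiesterase and cyclic nucleotide-gated channels. In RNA from whole eyes, fewer cells of a type and less RNA per cell cannot be told apart.

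The table holds a single signal for each probe set on each array and none below 0.01, called the table floor here. Every array was scaled to a common trimmed mean, so a value quoted below is a scaled signal, and a gene is given by its brightest probe set unless another is named. Differences are on the log2 scale after adding a pseudocount of 0.0211, which shrinks differences between faint values. Of 22626 non-control probe sets, 15838 passed a filter on mean signal over the 8 arrays, and these represent 9492 genes. The wild-type replicates lay more than 2-fold apart at 167 probe sets (1.05%) and the KPAW replicates at 575 (3.63%). The KPAW arrays are therefore given separately throughout. The number of arrays limits the precision.

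By the model fitted to all probe sets (limma, Benjamini-Hochberg adjusted p under 0.05), 4 of 15838 probe sets differed between KPAW and wild type, which is 0.0253%. Rptn, which encodes the cornified envelope protein repetin, read 0.00711 and 0.0135 in wild type I and II and 0.833 and 0.364 in KPAW. It rose by 4.20 (SE 0.34, adjusted p = 0.0269), from a wild-type level at or near the table floor, so the size of the change is set in part by the floor and the pseudocount. Its other tested probe set differed by -0.15 and did not pass. Tmem87a, a Golgi membrane protein gene, read 0.0414 and 0.0329 in wild type and 0.211 and 0.215 in KPAW, and rose by 2.01 (SE 0.19, adjusted p = 0.0331). The KPAW arrays were almost equal for this gene, unlike most of those below. A probe set of H2-D1, a class I histocompatibility heavy chain, read 0.986 and 0.795 in wild type and 0.177 and 0.173 in KPAW, and changed by -2.21 (SE 0.19, adjusted p = 0.0269). The lesser probe set of Ppp1r3c, a subunit that directs protein phosphatase 1 to glycogen, read 0.269 and 0.251 in wild type and 0.0867 and 0.0712 in KPAW, and changed by -1.5 (adjusted p = 0.0426). At an unadjusted p under 0.05 there were 593 probe sets higher and 507 lower in KPAW (6.95% together). All 4 calls were lost when KPAW I of 1 month or any wild-type array of either age was left out, and 562 probe sets passed without KPAW II.

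With so few calls, the arrays were also sorted by how far each KPAW array lay outside the wild-type pair. A gene was put in a class when a KPAW array was at least 2-fold (1 on the log2 scale) beyond both wild-type arrays, and it was put down to 1 KPAW array alone when the other lay within 0.5 of the wild-type range. Of 9492 genes, 55 (0.579%) were higher in both KPAW arrays and 5 (0.0527%) lower in both. KPAW I alone was higher at 67 genes (0.706%) and lower at 197 (2.08%). KPAW II alone was higher at no gene and lower at 6 (0.0632%), and at no gene did the KPAW arrays lie on opposite sides. The classes are descriptions with no test. Of the 55 genes higher in both arrays, 41 belong to the lists for cornification, keratins, goblet cells or mucosal defence. These lists have 39, 20, 20 and 24 of the 9492 genes. Of the 197 lower in KPAW I alone, 35 belong to the lists for rods, cones or photoreceptor transcription factors and 144 to no list. Those lists have 29, 12 and 10 of the 9492 genes. All lists were written with earlier results of these data known, so these counts are a description.

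**Figure D1:**
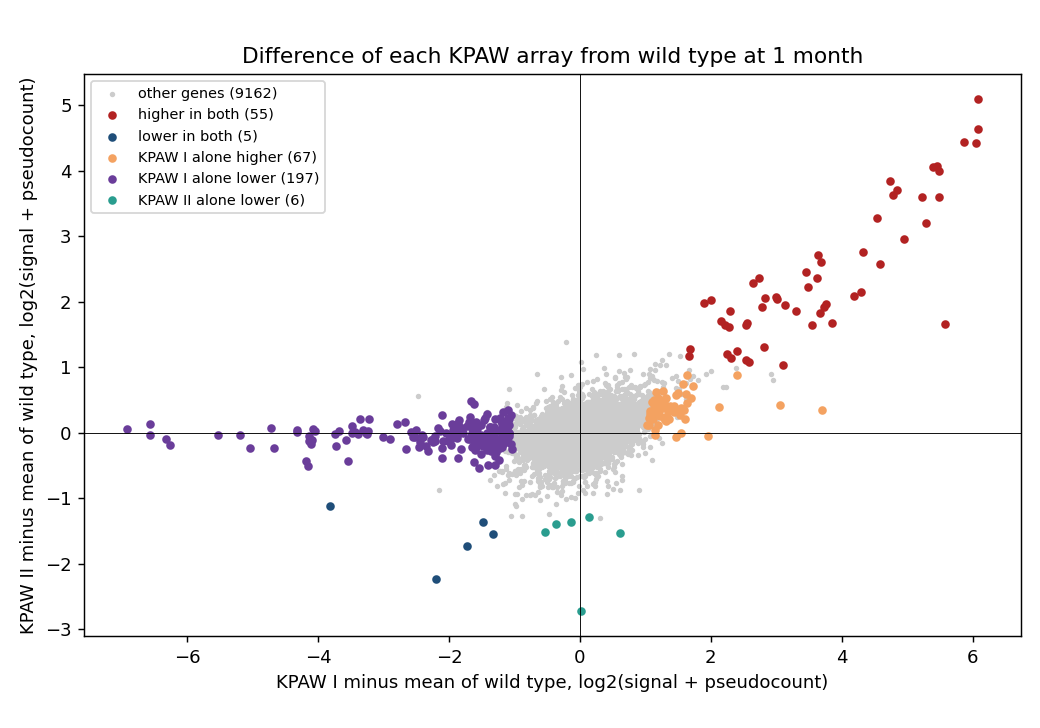
Difference of KPAW I (horizontal axis) and of KPAW II (vertical axis) from the mean of the 2 wild-type arrays at 1 month, each on the log2(signal + pseudocount) scale, with 1 point for each of 9492 genes and colours for the separation classes. Both axes share the wild-type mean, so no correlation is read from the plot; the 55 genes higher in both arrays run to the upper right and the 197 genes lower in KPAW I alone lie along the left arm, where KPAW II is near 0.

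The cornified envelope genes were the group that stood out in both KPAW arrays. Loricrin, the main structural protein of the envelope, was at the table floor in both wild-type arrays (0.00711 and 0.00955 after scaling) and reached 1.96 in KPAW I and 0.979 in KPAW II. Lor had a fitted difference of 5.58 (SE 1.39) that did not pass (adjusted p = 0.544), and 1 of its other 2 probe sets differed by 0.13. Krtdap, a secreted protein of differentiating keratinocytes, was also at the table floor in wild type and read 1.96 and 0.712 in KPAW. Calm4, a calcium-binding protein of the upper epidermis, read 0.0398 and 0.0469 in wild type and 3.71 and 1.37 in KPAW. In each of these the KPAW arrays lay far above wild type, as the genes were picked among the widest gaps, and KPAW I lay above KPAW II.

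The small proline-rich proteins, which are cross-linked into the envelope and are also made by injured mucosal epithelium, followed the same order. Sprr3 read 0.0254 and 0.00955 in wild type and 2.47 and 0.793 in KPAW (log2 5.24, SE 0.65, adjusted p = 0.0794). Sprr1a read 0.119 and 0.0931 in wild type and 5.64 and 2.0 in KPAW. Sprr1b was at the table floor in wild type and read 1.21 and 0.471 in KPAW. Sprr1a and Sprr1b did not pass the test (adjusted p = 0.675 and 0.607), and a KPAW array of 5 days also carried them (2.35 and 0.911), which widens the spread that the model uses. Lce3c, a late cornified envelope protein gene, read 0.0153 and 0.0216 in wild type and 1.52 and 0.342 in KPAW (4.25, SE 0.55, adjusted p = 0.0865). Dmkn, the secreted epidermal protein dermokine, read 0.0234 and 0.036 against 2.20 and 0.832. Klk10, a kallikrein-type protease gene, read 0.0185 and 0.026 against 1.31 and 0.314. Crct1, a cysteine-rich protein gene of the epidermal differentiation locus, read 0.0205 and 0.0385 against 1.14 and 0.463. All of these genes were among the 15 with the widest gap between the groups in this direction, so their lack of overlap follows from that choice. Ivl (involucrin) and Casp14, an epidermal caspase, lay at or next to the table floor on all 4 arrays and did not pass the filter.

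Of the 75 cornification genes listed, 48 had a probe set of their own and 39 passed the filter, some of them only through the arrays in which they were high. Over the 48, the KPAW arrays lay wholly above wild type at 35 and wholly below at 2, where over the 12393 genes on the array this held at 16.5% and 17.0%. Counts of genes above or below wild type without overlap are given below in the same way, over the genes of a list on the array, filtered or not, and are to be read against these shares. Among the 39, 25 were at least 2-fold higher in both KPAW arrays (0.579% of all genes were) and 3 in KPAW I alone (0.706%), and 1, Rptn, passed the test. Their median difference was 2.99 in KPAW I, 1.86 in KPAW II, and 0.02 and -0.00 over all genes. The list was written with earlier results of these data known, so its counts are a description. Tgm1, the main cross-linking enzyme of the envelope, read 0.0358 and 0.0518 in wild type and 0.147 and 0.0614 in KPAW, so that KPAW II lay close to wild type.

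**Figure D2:**
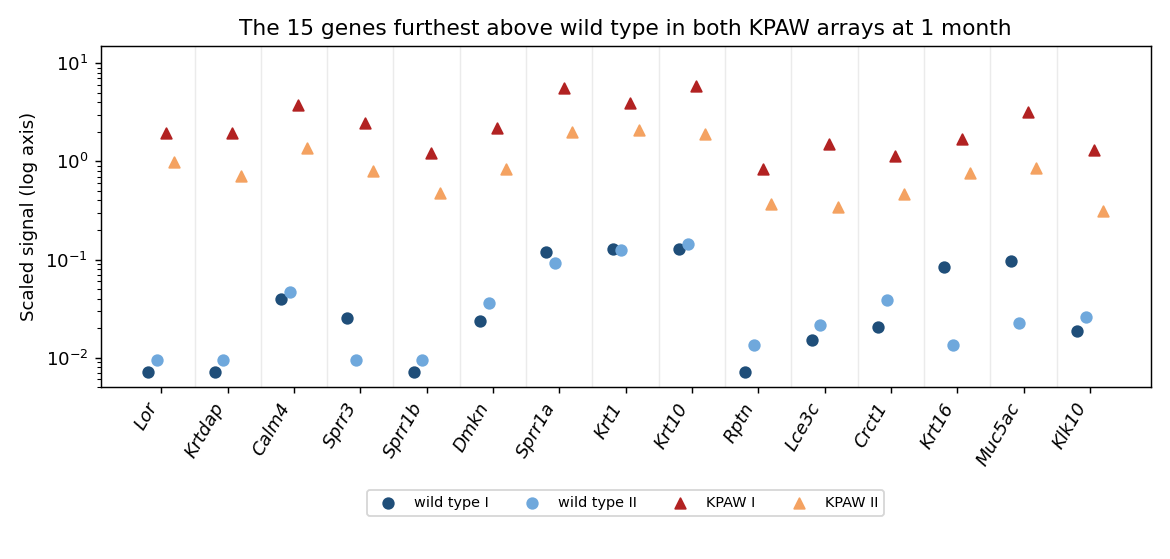
Scaled signal (log axis) of the 15 genes with the widest gap between both KPAW arrays (triangles) and both wild-type arrays (circles) at 1 month, 1 point per array. For each gene both KPAW points lie above both wild-type points and KPAW I lies above KPAW II, as for Lor at 1.96 and 0.979.

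The RefSeq promoter windows of 4 of these genes are shown because each holds a match to TGANTCA, and all lie in the epidermal differentiation locus on chromosome 3. TGANTCA is a loosened form of TGA(G/C)TCA, the consensus bound by AP-1 factors. The matches in Lor and Sprr1a have that consensus, while those in Rptn (TGATTCA) and Sprr1b (TGAATCA) do not. Each is the 250 bases before the start of the gene in build GRCm38.p6, read 5′ to 3′ on the strand of the gene, with the matches in capitals: Rptn at chr3:93393449-93393698 (plus strand), Lor at chr3:92083143-92083392 (minus strand), Sprr1a at chr3:92485882-92486131 (minus strand) and Sprr1b at chr3:92438780-92439029 (minus strand).
Rptn: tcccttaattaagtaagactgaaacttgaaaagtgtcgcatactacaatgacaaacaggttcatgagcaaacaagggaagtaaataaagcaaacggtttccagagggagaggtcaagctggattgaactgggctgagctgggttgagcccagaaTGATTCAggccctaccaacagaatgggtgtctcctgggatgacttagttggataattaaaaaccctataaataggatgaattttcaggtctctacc
Lor: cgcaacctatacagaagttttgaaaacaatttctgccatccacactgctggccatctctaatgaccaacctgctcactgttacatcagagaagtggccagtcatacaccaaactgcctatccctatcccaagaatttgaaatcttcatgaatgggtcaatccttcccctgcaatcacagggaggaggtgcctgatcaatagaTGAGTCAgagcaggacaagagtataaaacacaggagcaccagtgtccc
Sprr1a: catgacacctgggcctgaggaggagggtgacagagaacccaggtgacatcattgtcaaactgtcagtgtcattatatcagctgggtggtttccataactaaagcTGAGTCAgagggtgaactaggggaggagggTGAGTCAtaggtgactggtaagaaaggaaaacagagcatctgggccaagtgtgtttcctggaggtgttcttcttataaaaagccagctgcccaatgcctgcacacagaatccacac
Sprr1b: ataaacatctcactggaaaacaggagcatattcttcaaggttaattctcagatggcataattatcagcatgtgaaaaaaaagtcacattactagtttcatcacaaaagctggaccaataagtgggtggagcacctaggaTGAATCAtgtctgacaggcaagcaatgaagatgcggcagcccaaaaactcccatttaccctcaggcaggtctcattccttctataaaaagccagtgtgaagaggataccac
The match begins 96 bases before the start in Rptn, 48 in Lor and 111 in Sprr1b, and Sprr1a has matches at 146 and 116. TGANTCA was searched on both strands with any base at N, so the counts also hold matches outside the AP-1 consensus. Among the tested cornification genes with a window in the table, 12 of 34 (35.3%) held at least 1 match. This held for 466 of 7651 tested genes (6.09%) and 2113 of all 27025 genes with a window (7.82%). A match describes the letters of the window and is neither a binding site nor a cause, and the motif was picked with the results known.

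Keratins, the filament proteins of epithelial cells, divided by type. Keratins 1 and 10 form the filament pair of the upper epidermis. Krt1 read 0.127 and 0.126 in wild type and 3.93 and 2.09 in KPAW, and Krt10 read 0.127 and 0.144 in wild type and 5.80 and 1.89 in KPAW. The pair of the moist mucosal epithelia was also higher in both arrays: Krt4 read 1.02 and 1.27 against 5.39 and 3.62, and Krt13 read 0.65 and 0.897 against 3.82 and 2.83. Krt14, a basal keratin, read 0.59 and 0.597 in wild type and 4.05 and 3.14 in KPAW (2.54, SE 1.08, adjusted p = 0.675). Its usual basal partner showed no such gap: Krt5 read 4.61 and 4.55 in wild type and 4.43 and 4.18 in KPAW, a difference of -0.09 (SE 0.66). Krt16 and Krt17, which are made in wounded and proliferating epidermis, read 0.0837 and 0.0135 against 1.70 and 0.764, and 0.0356 and 0.0405 against 0.637 and 0.257. Krt6a, a keratin of the same wound response, read 2.72 and 3.03 in wild type and 5.94 and 4.94 in KPAW, which is above wild type without reaching the 2-fold mark. Of 22 keratins on the array, 16 lay above wild type without overlap (16.5% of all genes did) and 2 below (17.0%). Of the 20 tested, 7 were at least 2-fold higher in both arrays (0.579% of all genes were) and none passed the test. Their median difference was 1.08 in KPAW I and 0.77 in KPAW II.

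Several goblet cell genes read higher in KPAW, with the wider gap in KPAW I. Muc5ac, the gel-forming mucin of conjunctival goblet cells, read 0.0956 and 0.0227 in wild type and 3.17 and 0.848 in KPAW (4.54, SE 0.61, adjusted p = 0.0944). Muc5b, a second gel-forming mucin, read 0.0496 and 0.0116 against 1.13 and 0.267, and Agr2, a disulfide isomerase needed to fold mucins, read 0.0343 and 0.0222 against 0.681 and 0.136. Pigr, the receptor that carries antibodies across mucosal epithelium, read 0.0425 and 0.0529 against 0.377 and 0.127. These 4 genes were at least 2-fold higher in both arrays (0.579% of all genes were). Spdef, the transcription factor of goblet cell differentiation, and Tff1, a trefoil peptide, crossed that mark in KPAW I alone: Spdef read 0.0282 and 0.0416 in wild type and 0.14 and 0.046 in KPAW, and Tff1 read 0.763 and 0.493 against 1.87 and 1.05. The membrane mucin Muc4 read 0.406 and 0.454 in wild type and 0.779 and 0.439 in KPAW, so KPAW II overlapped wild type. Of the 29 genes of the list on the array, 15 lay above wild type without overlap (16.5% of all genes did) and 1 below (17.0%). The 1 below was Tff3, another trefoil peptide, which read 0.0471 and 0.0109 in wild type and 0.0105 and 0.0109 in KPAW, next to the table floor. None of the 20 tested genes passed the test. Their median difference was 0.82 in KPAW I and 0.17 in KPAW II. In a fit without KPAW II, KPAW I is the lone KPAW array of its age and is assumed to vary like the other groups. No count from that fit is therefore given for this list.

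Secreted defence proteins of mucosa gave similar values. Slpi, an inhibitor of neutrophil elastase, read 0.116 and 0.0905 in wild type and 0.75 and 0.584 in KPAW (2.47, SE 0.32, adjusted p = 0.0865), and the KPAW arrays lay close together. Reg3g, a lectin that kills bacteria, was at the table floor in both wild-type arrays and reached 1.38 in KPAW I but 0.0723 in KPAW II. Wfdc2, a further protease inhibitor of the same family as Slpi, read 0.385 and 0.344 against 2.29 and 0.795. The alarmins S100a8 and S100a9, which form calprotectin, read 0.0207 and 0.00963 against 0.294 and 0.118, and 0.018 and 0.0122 against 0.634 and 0.133. Both are made by neutrophils as well as by stressed keratinocytes. In KPAW I alone, Lcn2, an iron-sequestering protein, read 0.423 against 0.0343 and 0.0307 in wild type and 0.0509 in KPAW II. Of the 35 genes of the list on the array, 25 lay above wild type without overlap (16.5% of all genes did) and none below (17.0%). Of the 24 tested, 6 were at least 2-fold higher in both arrays (0.579% of all genes were) and none passed the test.

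Of the 55 genes higher in both KPAW arrays, 13 belonged to no list, and several have known roles in epithelium. Gp2, a glycoprotein of mucosal surfaces, read 0.0968 and 0.0622 in wild type and 1.29 and 0.355 in KPAW. Arg1, the arginine-degrading enzyme arginase, read 0.164 and 0.195 against 1.38 and 0.473. Crabp2, a carrier of retinoic acid, read 0.00854 and 0.01 against 0.573 and 0.113. Upp1, a uridine phosphorylase, read 0.181 and 0.203 against 0.985 and 0.469. Sult2b1, a sulfotransferase that modifies cholesterol in the epidermis, read 0.0229 and 0.0187 against 0.186 and 0.0716. None of these passed the test; they were chosen after their values were seen, apart from Crabp2. In 53 of the 55 genes KPAW I was higher than KPAW II, with medians of 3.55 and 2.06 above wild type, and 6 of them were at the table floor in both wild-type arrays.

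The array pairs at 5 days set a scale for these epidermal signals. The summed signal of the epidermal markers Lor, Krt1, Krt10 and Krtdap was 0.268 and 0.289 in wild type at 1 month and 13.6 and 5.67 in KPAW. At 5 days it was 3.74 in array I and 0.308 in array II of wild type, and 2.65 and 0.248 in arrays I and II of KPAW. Epidermal transcripts thus also differed more than 10-fold between arrays of 1 group at 5 days, in wild type as in KPAW. There 22 of the 39 tested cornification genes in wild type and 31 in KPAW were more than 2-fold higher in array I than in array II, and 1 and 0 the other way. At 1 month 1 in wild type and 23 in KPAW were higher in array I by this measure, and 3 and 0 the other way. The hair follicle markers Krt71 and Tchh summed to 1.97 in wild type I and 0.313 in KPAW I at 5 days, but at 1 month to 0.0794 and 0.0655 in wild type and 0.0782 and 0.0648 in KPAW, and Tchh was at the table floor on all 4 arrays. Over the 31 hair follicle genes on the array, the summed signals at 1 month were 1.12 and 1.15 in wild type and 1.24 and 1.18 in KPAW. Of these 31 genes, 3 lay above wild type without overlap at 1 month and 3 below. Goblet markers were low on all arrays of 5 days (0.048 to 0.073). Whether lid skin or conjunctiva was left on some eyes was not tested.

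**Figure D3:**
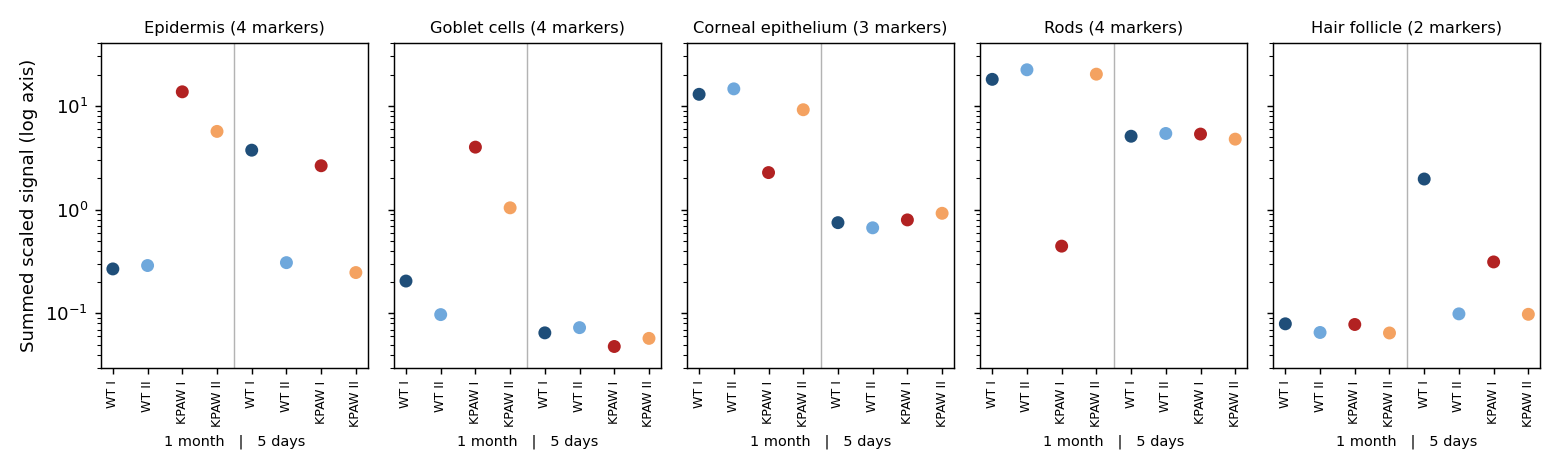
Summed scaled signal (log axis) of cell type markers on each of the 8 arrays, with 1 month left and 5 days right of the grey line and wild type before KPAW. Epidermal markers are high in both KPAW arrays of 1 month (13.6 and 5.67) and in array I of both groups at 5 days (3.74 and 2.65), hair follicle markers are highest in wild type I at 5 days (1.97) and rod markers are low in KPAW I at 1 month (0.445).

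The 5 genes at least 2-fold lower in both KPAW arrays were H2-D1, H2-K1, Ppp1r3c, Actn3 and Slurp1. The class I heavy chains, which display peptides to T cells, were not uniform over their probe sets. H2-D1 had 9 probe sets, of which 4 passed the filter: 3 were lower in both KPAW arrays and 1 was higher in both. Beside the called one, a second H2-D1 probe set read 1.01 and 0.556 in wild type and 0.166 and 0.0879 in KPAW (-2.43, adjusted p = 0.117). Another read 0.171 and 0.0978 in wild type and was at the table floor in both KPAW arrays (adjusted p = 0.0617). The probe set that went the other way read 0.0116 and 0.11 in wild type and 0.37 and 0.256 in KPAW (2.33, SE 0.55, adjusted p = 0.507). H2-K1 had 4 probe sets: 1 read 0.989 and 0.471 against 0.193 and 0.192 and 1 read 0.698 and 0.331 against 0.0778 and 0.0594, while the other 2 differed by -0.05 and -0.18. Signals for the same gene thus pointed both ways. Class I genes are near-identical copies of one another and vary in sequence between mouse strains, and no strain is given for these arrays. The level of a single class I gene is therefore uncertain here. H2-M3, which presents bacterial peptides, read 0.117 and 0.12 against 0.0518 and 0.0576 (-0.88, adjusted p = 0.374). The list of class I and antigen-processing genes as a whole did not share the difference, with a median of 0.18 over 14 tested genes. Of its 19 genes on the array, 10 lay above wild type without overlap (16.5% of all genes did) and 3 below (17.0%).

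Ppp1r3c and Gyg, both of glycogen storage, read lower in KPAW. The brighter probe set of Ppp1r3c read 0.739 and 0.676 in wild type and 0.239 and 0.263 in KPAW (-1.42, SE 0.17, adjusted p = 0.0794), a difference almost equal to that of the called one. Gyg, or glycogenin, the protein on which a glycogen chain is started, read 0.649 and 0.451 against 0.234 and 0.276 (-1.03, SE 0.20, adjusted p = 0.368). The glycogen list as a whole was not set apart: of its 19 genes on the array 3 lay below wild type without overlap and none above, against 17.0% and 16.5% of all genes, and its median difference was 0.01. Pygm, the muscle glycogen phosphorylase, read 0.326 and 0.219 in wild type and 0.266 and 0.311 in KPAW. Egln3, an oxygen-sensing prolyl hydroxylase, read 0.682 and 0.574 against 0.309 and 0.278 (-1.04, SE 0.15, adjusted p = 0.136).

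Muscle transcripts did not move as a block. Actn3, the actinin of fast muscle fibres, read 0.0823 and 0.0898 in wild type and 0.0218 and 0.0156 in KPAW (-1.43, SE 0.23, adjusted p = 0.196). Myh1, a fast myosin heavy chain, read 0.326 and 0.253 against 0.768 and 0.336, and Myh4, another, read 0.24 and 0.164 against 0.149 and 0.0625. Acta1, skeletal actin, read 0.747 and 0.469 against 0.81 and 0.477. Of 41 muscle genes on the array, 3 lay above and 8 below wild type without overlap (16.5% and 17.0% of all genes did). Their summed signal was 11.9 and 9.34 in wild type and 14.9 and 9.51 in KPAW.

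Krt12, Slurp1 and Aldh3a1, all abundant in corneal epithelium, read lower in KPAW, and Krt12 and Slurp1 far more so in KPAW I, while the corneal list as a whole had a median difference of -0.01. Krt12, the keratin of the corneal epithelium, read 6.76 and 7.82 in wild type, 0.391 in KPAW I and 5.13 in KPAW II (-2.32, SE 0.92, adjusted p = 0.675), and its other probe set differed by -2.25. KPAW I held 5.37% of the wild-type mean of Krt12 and KPAW II 70.4%. Slurp1, a secreted protein of corneal and other surface epithelium, read 2.01 and 2.20 in wild type, 0.130 in KPAW I and 0.963 in KPAW II (-2.46, SE 0.69, adjusted p = 0.627). Aldh3a1, an aldehyde dehydrogenase packed into corneal cells, read 4.14 and 4.56 against 1.75 and 3.08. All 3 lay below wild type in both arrays and lowest in KPAW I.

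Aqp5 and Tkt of the corneal list had near-equal values in the KPAW arrays. Aqp5, a water channel of corneal and glandular epithelium, read 3.28 and 3.16 in wild type and 1.90 and 1.92 in KPAW (-0.75, SE 0.27, adjusted p = 0.675). Tkt, transketolase, another abundant corneal enzyme, read 4.13 and 4.89 against 2.90 and 2.92 (-0.62, SE 0.13, adjusted p = 0.410). Col17a1, which anchors basal cells to their basement membrane, read 1.00 and 0.646 against 0.345 and 0.460. Tgfbi, a secreted adhesion protein of the cornea, read 1.31 and 0.995 against 0.491 and 0.757. Ehf, an epithelial transcription factor gene of the same list, went the other way, at 0.184 and 0.185 against 0.279 and 0.212. Of the 24 corneal genes, all tested, 7 lay below wild type without overlap (17.0% of all genes did), 5 above (16.5%) and none passed the test.

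Rod transcripts were nearly missing from KPAW I and at wild-type level in KPAW II. Gnat1, the alpha subunit of rod transducin, read 5.99 and 7.09 in wild type, 0.0478 in KPAW I and 7.18 in KPAW II. Guca1b, a calcium sensor of the outer segment, read 3.54 and 4.22 in wild type, 0.0111 in KPAW I and 4.03 in KPAW II. Pde6b, a catalytic subunit of the rod phosphodiesterase, read 2.28 and 2.70 in wild type, was at the table floor in KPAW I and read 2.33 in KPAW II. In these 3 genes KPAW II lay within or near the wild-type range and KPAW I stood alone. Pde6g, the inhibitory subunit, read 4.97 and 6.36, then 0.134 and 5.47. Cnga1, the channel opened by cyclic GMP, read 1.38 and 1.47, was at the table floor in KPAW I and read 1.39 in KPAW II. Sag, the arrestin that ends the light response, read 5.83 and 7.73, then 0.362 and 6.48. Rp1, a microtubule protein of the outer segment, read 0.966 and 1.05, was at the table floor in KPAW I and read 0.86 in KPAW II. Reep6, a membrane protein of rods, read 2.40 and 3.05, then 0.0145 and 2.38. The gene of rhodopsin has no value here, as it has no probe set of its own in the annotation used.

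Of 29 tested rod genes, 27 were at least 2-fold lower in KPAW I alone, where this held for 2.08% of all genes, and none of the list was in a class that KPAW II set apart. Over the 27, KPAW I held a median of 4.97% of the wild-type mean (0.286% to 31.1%) and KPAW II 99.2% (73.8% to 119%). The exceptions by their brightest probe set were Gnb1, the beta subunit of transducin, and Rgs9, which speeds its shut-off. Gnb1 read 1.31 and 5.84 in wild type and 1.53 and 1.66 in KPAW, but its other tested probe set, at 1.68 and 3.35 against 0.485 and 1.81, was lower in KPAW I alone. Rgs9 read 0.154 and 0.130 in wild type and 0.137 and 0.148 in KPAW, and its fainter tested probe set, at 0.0952 and 0.0603 in wild type, the table floor in KPAW I and 0.0941 in KPAW II, was also lower in KPAW I alone. With both KPAW arrays in the model no rod gene passed: Gnat1 had a fitted difference of -3.22 with an SE of 1.69 (adjusted p = 0.675). That the KPAW arrays part in rod and corneal genes was known when the comparison was chosen, so the values of each array are a description and no test of 1 KPAW array on these genes is given.

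The promoter windows of 2 rod genes are printed because they hold the letters GGATTA, the core of the sequence bound by Crx and related homeodomain proteins, again as the 250 bases before the start in GRCm38.p6 with matches in capitals. Sag lies at chr1:87803430-87803679 (plus strand) and Cnga1 at chr5:72642753-72643002 (minus strand), where the capitals TAATCC are the motif on the opposite strand.
Sag: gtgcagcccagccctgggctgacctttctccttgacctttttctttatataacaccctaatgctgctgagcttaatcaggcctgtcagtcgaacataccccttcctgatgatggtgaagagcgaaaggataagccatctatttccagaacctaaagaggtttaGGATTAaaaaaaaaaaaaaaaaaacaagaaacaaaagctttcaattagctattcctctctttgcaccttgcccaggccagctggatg
Cnga1: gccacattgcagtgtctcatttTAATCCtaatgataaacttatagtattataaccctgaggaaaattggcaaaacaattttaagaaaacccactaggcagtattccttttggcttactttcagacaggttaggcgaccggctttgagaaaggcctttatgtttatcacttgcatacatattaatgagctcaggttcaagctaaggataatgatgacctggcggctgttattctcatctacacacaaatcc
The match begins 87 bases before the start in Sag and 228 in Cnga1. Of 22 tested rod genes with a window, 10 (45.5%) held GGATTA on either strand. This held for 504 of 7651 tested genes (6.59%) and 1949 of all 27025 genes with a window (7.21%). For comparison, 1 of 34 cornification genes (2.94%) held it, and 3 of the 22 rod genes (13.6%) held TGANTCA. Here too a match is neither a binding site nor a cause, and the motif was picked with the results known.

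Transcription factors of photoreceptors were lower in KPAW I as well. Nrl, which commits a precursor to the rod fate, read 3.89 and 4.73 in wild type, 0.0243 in KPAW I and 4.20 in KPAW II. Crx, which acts in rods and cones, read 1.31 and 1.30, then 0.144 and 1.24. Of 10 tested factors, 5 were at least 2-fold lower in KPAW I alone (2.08% of all genes were). At 5 days Nrl had read between 2.41 and 2.62 on all 4 arrays, KPAW included.

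Cone genes differed among themselves in KPAW I. Opn1sw, the short-wavelength opsin, read 1.56 and 1.45 in wild type, 0.265 in KPAW I and 1.47 in KPAW II. Gnat2, cone transducin, read 1.04 and 1.13, then 0.494 and 1.06, and Arr3, cone arrestin, read 0.473 and 0.529, then 0.256 and 0.596. Opn1mw, the medium-wavelength opsin, read 0.402 and 0.524 in wild type, 0.399 in KPAW I and 0.628 in KPAW II, so KPAW I was next to the lower wild-type array. The cone list had 4 of 12 tested genes at least 2-fold lower in KPAW I alone (2.08% of all genes were), 1 of which, Grk1, also serves rods. Its median in KPAW I was -0.68, against -4.08 for the rod list.

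Genes outside the photoreceptor lists shared the KPAW I pattern. Rbp3, the retinoid carrier that photoreceptors secrete around the outer segments, read 4.70 and 4.26 in wild type, 0.688 in KPAW I and 5.01 in KPAW II. Vtn, vitronectin, read 2.10 and 1.95, then 0.178 and 2.33. Hk2, a hexokinase, read 0.906 and 0.973, then 0.291 and 0.921, and Slc16a1, a lactate transporter, read 1.07 and 1.26, then 0.34 and 1.09. Cplx4, a complexin of ribbon synapses, read 0.896 and 0.833, then 0.0716 and 0.857. Cabp4, a calcium-binding protein of photoreceptor terminals, read 0.363 and 0.433, was at the table floor in KPAW I and read 0.341 in KPAW II. Kcnj14, a potassium channel, read 1.49 and 1.59, then 0.0402 and 1.31, and Samd11 read 0.812 and 0.801, was at the table floor in KPAW I and read 0.847 in KPAW II. Some of the genes that belong to no list are known for inherited photoreceptor disease or ciliary roles: Rpgrip1 read 0.628 and 0.738, then 0.112 and 0.653, Pcare 0.856 and 0.798, then 0.0552 and 0.889, Impdh1 1.41 and 1.08, then 0.329 and 1.41, and Bbs2 0.353 and 0.277, then 0.0707 and 0.352. In each, KPAW I was the low array. These 4 were chosen after their values were seen.

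The lists for other retinal cells had medians nearer 0 in KPAW I than the rod list. Trpm1, the cation channel of bipolar cells, read 0.354 and 0.331 in wild type and 0.63 and 0.41 in KPAW. Its other probe set went the other way, at 0.181 and 0.105 against 0.0827 and 0.103 (-0.49). Trpm1 is also on the pigment epithelium list, so it does not stand for bipolar cells alone. Cabp5, a calcium-binding protein of bipolar cells, read 0.525 and 0.441 against 0.708 and 0.485. Of 30 tested genes of bipolar, amacrine and horizontal cells, 1 was at least 2-fold lower in KPAW I alone (2.08% of all genes were). The list median was 0.01 in KPAW I and -0.07 in KPAW II. Thy1, a surface protein of ganglion cells, read 0.595 and 0.553 against 0.546 and 0.535, and Nefl, a neurofilament of their axons, 1.42 and 1.37 against 1.28 and 1.27. Of 29 ganglion cell genes on the array, 11 lay below wild type without overlap (17.0% of all genes did) and 1 above (16.5%). The differences were small, with list medians of -0.11 (KPAW I) and -0.14 (KPAW II), and no tested one was in a 2-fold class. Glul, the glutamine synthetase of Mueller glia, read 1.87 and 1.82 against 1.95 and 1.75, and Rlbp1, a retinoid carrier shared by glia and pigment epithelium, read 0.875 and 0.864 against 0.829 and 0.824. The Mueller glia list had a median of 0.36 for KPAW I and of 0.02 for KPAW II, and 3 of its 32 tested genes were at least 2-fold higher in KPAW I alone (0.706% of all genes were). The 3 were Lcn2, Serpina3n and Socs3. Lcn2 is also on the neutrophil list and Socs3 on the list of immediate early genes, so they do not stand for glia alone. Rpe65, the isomerase of the visual cycle in the pigment epithelium, read 1.79 and 1.66 against 1.22 and 1.58. KPAW I was thus the highest array for Trpm1 by its brightest probe set, the lowest by its other one, and the lowest for Rpe65. None of the genes named passed the test.

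**Figure D4:**
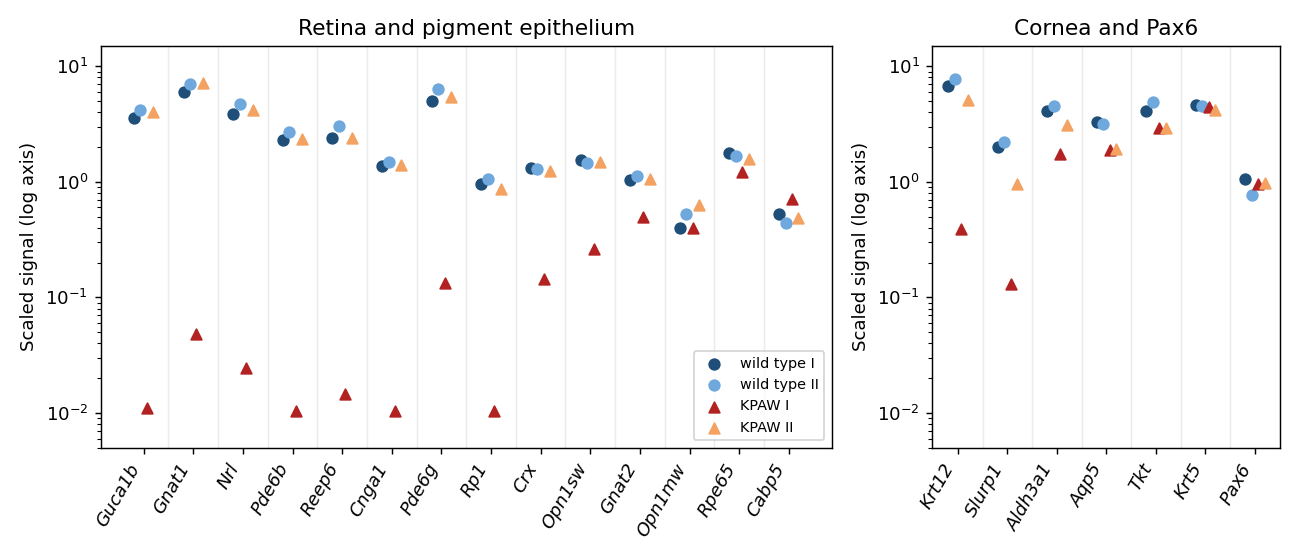
Scaled signal (log axis) of retinal and pigment epithelial genes (left) and of corneal genes and Pax6 (right) on each array at 1 month, with circles for wild type and triangles for KPAW. KPAW I is the low point for the rod genes, as for Gnat1 at 0.0478 against 5.99 to 7.18 on the other arrays, and for Krt12; Opn1mw, Cabp5, Krt5 and Pax6 show no such gap.

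Pax6, the transcription factor required for eye formation and for the corneal epithelium, read 1.06 and 0.771 in wild type and 0.950 and 0.984 in KPAW, a difference of 0.09 (SE 0.20, adjusted p = 0.914), and its other 3 tested probe sets differed by -0.09 to -0.04. The 4 arrays overlapped for this gene. Klf4, a factor of corneal and epidermal differentiation, read 0.812 and 0.782 against 0.898 and 0.622, Klf5, a related factor, 0.633 and 0.751 against 1.22 and 0.786, and Trp63, the factor of basal epithelium, 0.170 and 0.185 against 0.164 and 0.127. Pitx1, a homeobox gene, read 0.0581 and 0.07 against 0.168 and 0.0861. It was the 1 of 28 tested surface epithelium factors more than 2-fold higher in KPAW I alone (0.706% of all genes were). None was so in both arrays.

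Crystallins, the lens proteins, read slightly higher in KPAW after scaling. Their summed signal was 80.6 and 104 in wild type and 113 and 106 in KPAW, so wild type II lay close to KPAW II. With the signals as deposited, Cryaa differed by -0.03 and Crybb2 by -0.08. Cryaa, alpha-A crystallin, read 7.61 and 8.65 in wild type and 9.88 and 9.42 in KPAW (0.25, SE 0.17, adjusted p = 0.707), and Crybb2, a beta crystallin, read 6.55 and 7.91 against 8.30 and 8.25. Of 17 crystallin genes, 8 lay above wild type without overlap (16.5% of all genes did) and none below (17.0%), with a median of 0.27. Of 25 lens fibre genes on the array, 7 lay above and 2 below, with a median of 0.27 for KPAW I and of 0.05 for KPAW II. None of either list passed the test.

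Most collagen genes read higher in KPAW, with smaller medians than the cornified envelope list. Col1a1, a chain of the main fibrillar collagen, read 0.814 and 0.551 in wild type and 1.89 and 1.24 in KPAW (1.17, SE 0.24, adjusted p = 0.396), and Col3a1, the collagen of pliable tissue, read 1.35 and 0.948 against 2.68 and 2.34 (1.13, SE 0.18, adjusted p = 0.219). Of 44 collagen and matrix genes on the array, 29 lay above wild type without overlap (16.5% of all genes did) and none below (17.0%). None of the 42 tested passed, and their median was 0.55 in KPAW I and 0.22 in KPAW II. Lum and Dcn, stromal proteoglycans, read 0.638 and 0.644 against 1.27 and 0.813, and 2.51 and 2.77 against 4.23 and 3.27. Kera, keratocan of corneal keratocytes, overlapped at 0.180 and 0.162 against 0.240 and 0.134. Of 28 stromal proteoglycan and keratocyte genes 12 lay above and 3 below wild type, and of 41 fibrosis genes on the array 12 above and 4 below. Melanocyte genes, for comparison, included Tyr at 0.368 and 0.371 against 0.677 and 0.473.

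Macrophage genes were higher mainly in KPAW I. C1qa, a complement chain made by macrophages and microglia, read 0.131 and 0.124 in wild type and 0.33 and 0.178 in KPAW. Tyrobp, an adaptor of myeloid receptors, read 0.0926 and 0.0796 against 0.243 and 0.123. Csf1r, the receptor for macrophage growth factor, read 0.390 and 0.376 against 0.62 and 0.408. Of 41 macrophage genes on the array, 22 lay above wild type without overlap (16.5% of all genes did) and 3 below (17.0%). Of the 33 tested, 5 were at least 2-fold higher in KPAW I alone (0.706% of all genes were) and none in both. The summed signal of the 41 was 7.60 and 7.47 in wild type and 10.6 and 8.62 in KPAW. Among neutrophil and acute inflammation genes, Ltf, lactoferrin, read 0.150 and 0.128 against 1.21 and 0.259, and Cxcl2, a neutrophil chemokine, read 0.0174 and 0.0222 against 0.103 and 0.026. The summed signal of the 32 genes of that list on the array was 1.18 and 0.936 in wild type and 4.17 and 1.57 in KPAW, and 5 of them were at the table floor in both wild-type arrays. Camp, a neutrophil granule gene, was at the table floor in both KPAW arrays, while Ltf read higher there than in wild type. Above and below wild type without overlap lay 11 and 3 of the 32 neutrophil and acute inflammation genes (16.5% and 17.0% of all genes did). In other immune lists these counts were 12 and 2 of 44 interferon-stimulated genes and 8 and 2 of 22 complement genes. They were 4 and 5 of 27 lymphocyte and mast cell genes and 3 and 1 of 10 class II genes.

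Dividing-cell genes gave small differences in KPAW I. Birc5, or survivin, read 0.0496 and 0.0554 in wild type and 0.14 and 0.0828 in KPAW, and Mki67, a marker of cycling cells, read 0.0587 and 0.0573 against 0.138 and 0.0723. Of 55 genes on the array, 18 lay above wild type without overlap (16.5% of all genes did) and 1 below (17.0%), and the 49 tested had a median of 0.30 in KPAW I and 0.04 in KPAW II.

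The 6 genes lower in KPAW II alone read no higher than 0.296 on any array of 1 month. St6galnac1, a sialyltransferase that acts on mucins, read 0.121 and 0.296 in wild type, 0.193 in KPAW I but 0.0113 in KPAW II, and Rab3b, a vesicle regulator, read 0.0932 and 0.118, then 0.172 and 0.0225. Pou2f3, a factor of the suprabasal epidermis and tuft cells, read 0.0707 and 0.0649, then 0.0601 and 0.0134. The others were Tyro3, Trim62 and Myh4. They share no list that was examined, apart from St6galnac1 with the goblet cell genes, Myh4 with muscle and Tyro3 with the melanin genes.

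**Figure D5:**
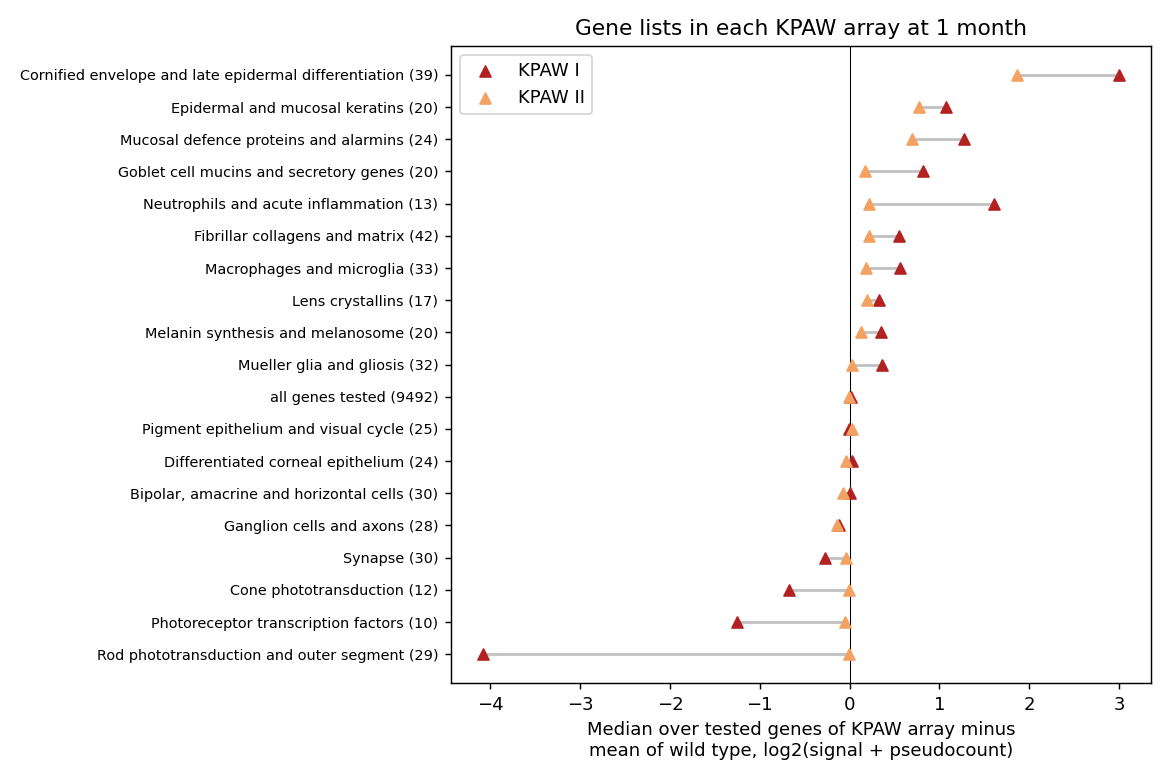
Median over the tested genes of each list (number in brackets) of the difference of KPAW I and of KPAW II from the wild-type mean, on the log2(signal + pseudocount) scale. The cornified envelope list lies at 2.99 and 1.86, the rod list at -4.08 and -0.01, and all genes at 0.02 and -0.00.

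The change of the KPAW difference with age was also tested. No probe set of 15838 (0%) passed for a difference between 1 month and 5 days (limma, adjusted p), with 932 (5.88%) at an unadjusted p under 0.05. At 5 days no probe set (0%) differed between KPAW and wild type by the same test, with 378 (2.39%) at an unadjusted p under 0.05. Rptn read 0.0126 to 0.0158 on the 4 arrays of 5 days and its difference grew by 4.11 (SE 0.49, adjusted p = 0.292). The called H2-D1 probe set read 0.372 and 0.305 in wild type and 0.415 and 0.296 in KPAW at 5 days, and its change with age was -2.26 (SE 0.28, adjusted p = 0.292). Muc5ac read 0.0109 to 0.0136 at 5 days. Krt16 had read 2.18 in KPAW I at 5 days and 0.00999 to 0.0126 on the other 3 arrays of that age, so the wound keratin was already high on 1 KPAW array. Krt14 likewise read 3.69 there and 0.169 to 0.363 elsewhere. Aqp5, low at 5 days (0.0109 to 0.096), lay below wild type at 1 month only.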

How the data were processed

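RNA from mouse eyes was hybridised to 8 expression arrays, 2 in each of 4 groups, after Trizol extraction and column clean-up, per the labels. Each deposited signal belongs to 1 probe set on 1 array, per the file headers. The software and the scaling that made the signals are not given in the sources used here. Control probe sets had a median of 1, 10.0% to 14.9% of an array's probe sets sat at the table floor of 0.01, and the highest signal was 11.1, so the signals were treated as linear.

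Controls (64 of 22690 probe sets) were left out, and signals were multiplied so that all arrays shared 1 trimmed mean (2% off each end), the median of the 8, which had run from 0.142 to 0.253. A pseudocount of 0.0211 (the 20th percentile of positive values) was added before taking log2, and probe sets above the 30th percentile of mean signal were kept. A limma model with a variance trend (limma 3.58.1, R 4.3.3) was fitted to 4 group means with 4 residual degrees of freedom. Group comparisons and their change with age were called at p under 0.05 after Benjamini-Hochberg adjustment over all 15838 remaining probe sets. On simulated data for the 1-month comparison, the model recovered 50% of probe sets changed 2-fold and 98% of those changed 4-fold, with 10 false calls, but the simulated replicates lacked the divergence seen between the real KPAW arrays.

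Probe sets were named through the platform annotation: 20380 carried 1 symbol, 691 several and 1555 none. Groups counted as not overlapping when both arrays of the higher group were above the table floor and above both others. The named genes are those called, the 15 widest gaps in each direction, the 10 genes on which the KPAW arrays differed most in each direction, up to 4 per list by size of difference, and 11 fixed genes such as Pax6. Other named members illustrate a list and were chosen after their values were seen. The genes, the 47 lists and the comparison itself were chosen with earlier results of these data known. Promoter windows came from RefSeq tables of GRCm38.p6. Alternatives changed the scaling, pseudocount, filter, variance trend, samples, array weights, replicate block and size of the separation, and left out each array. Python 3.11.15 with pandas 2.3.3 made the tables and matplotlib 3.10.9 the figures.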

Additional observations from a re-analysis of the deposited data

How the results depend on the processing

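The 4 calls at 1 month became 99 with the signals as deposited (54 higher, 45 lower), where the median of all genes shifted to -0.25 on the log2 scale. There were 19 with the 4 arrays of 1 month alone (18 higher, 1 lower), 2 with a pseudocount at the 5th percentile, 2 with a filter above the 50th and 1 with array weights. Leaving out each array in turn gave 0 to 562 calls: 562 without KPAW II, 0 without KPAW I or any wild-type array, and 11 and 10 without KPAW I and II of 5 days. The age dependence had 36 calls as deposited and 0 to 306 with an array left out, of which 306 came without KPAW II of 1 month, and 1 and 11 without KPAW I and II of 5 days. Arrays with the same numeral had deviations that correlated at 0.0161 at 1 month and 0.309 at 5 days over 15838 probe sets, so the numerals were not taken to pair arrays. A replicate block on the numeral gave 13 calls at 1 month. Among the called genes, Rptn passed in 14 of 19 alternatives (adjusted p up to 0.247), H2-D1 in 13 of 19 (up to 0.247), Tmem87a in 11 of 18 (up to 0.250) and Ppp1r3c in 8 of 19 (up to 0.296). No called change of a named gene changed direction. Of the 175 named genes tested, called or not, 38 changed sign in at least 1 alternative. In 8 of these the main difference was at least 1 in size, as for Gnat1, at -3.22 and at 0.14 without KPAW I of 1 month.

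Over probe sets, 70 were higher in both KPAW arrays, 9 lower in both, 92 and 328 higher and lower in KPAW I alone, and 1 and 12 in KPAW II alone. In that order of classes, a 1.5-fold mark gave 130, 47, 591, 826, 36 and 105, and a 3-fold mark changed the last 5 to 4, 9, 138, 0 and 1. A pseudocount at the 50th percentile gave 41, 4, 31, 179, 0 and 1. The signals as deposited gave 14 lower in both, 36 and 499 in KPAW I alone and 0 higher in KPAW II alone. With the stricter filter 50 were higher in KPAW I alone and, in KPAW II alone, 0 were higher and 3 lower. For KPAW II alone, quantile and median scaling each gave 2 higher, no filter gave 5 higher, and a pseudocount at the 5th percentile gave 3 higher and 23 lower. With 1 wild-type array left out, the ranges were 99 to 121 higher in both, 20 to 24 lower in both, and 11 to 19 higher and 20 to 21 lower in KPAW II alone. Under the 3 other scalings 3 of the 47 list medians, taken relative to all genes, changed sign, none of them over 0.081 in size. The cause of these shifts was not tested.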
